A study of Mus musculus with 18 samples.

Results

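Unexposed mouse lung was described against a common reference RNA on 5 two-colour arrays, those of the mice given only the vehicle (sample titles beginning D0), chosen by that label from the 18 arrays of the series. The other 13 arrays held lung RNA of mice dosed with a 4PAH mixture of polycyclic aromatic hydrocarbons at 12.5, 25 or 50 mg BaP equivalents/kg body weight per day, and are used here only as further lungs beside the vehicle values. All animals were males of the transgenic strain MutaTMMouse, kept on a mixed BALB/C and DBA/2 background and about 12 weeks old. The vehicle mice were gavaged with olive oil every day for 28 days and their lungs were taken 72 hours after the last gavage, so "unexposed" means free of the mixture but not free of gavage, oil or the transgene. Each lung was 1 piece of whole frozen tissue from 1 mouse, with every cell type and the remaining blood in it. On each array the lung cRNA carried Cy5 and Universal Mouse Reference RNA, made from 11 mouse cell lines, carried Cy3. The dyes were not swapped, so that a dye effect of a probe and a difference between lung and reference cannot be told apart.

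The mammalian lung exchanges gas across alveoli lined by flat alveolar type 1 cells and by cuboidal alveolar type 2 cells, which make surfactant. The airways leading to them are lined by secretory club cells and by ciliated cells that move mucus, and the alveolar wall holds one of the densest capillary beds of the body, with macrophages patrolling the air side. Few cells of an adult lung divide at any time. Cell lines in culture, in contrast, are kept dividing, and such lines are the only source of the reference RNA. A log2 ratio above 0 in the values below means that the lung signal of a gene exceeded its signal in the reference pool, and a log2 ratio of 1 is a 2-fold difference.

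The 5 arrays were of similar quality. Between 52.97% and 61.06% of the non-control probes were well above background in the lung channel and between 51.33% and 57.52% in the reference channel, no probe was saturated, and 244 to 307 spots per array carried an outlier flag and were left out. The slope of the observed on the expected log ratio of the spike-in controls, as the scanner software reported it, was 0.891 to 0.915. Log2 ratios of any pair of the 5 mice correlated across probes with r between 0.953 and 0.972. Mice 1 and 2 shared a slide (r = 0.972), mice 3 and 4 shared another (r = 0.953) and mouse 5 lay on a slide without another vehicle mouse, and the consensus correlation of mice on one slide was -0.042.

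Lung and reference differed at a large share of the transcriptome. Of 55681 non-control probes, 4739 (8.51%) were called higher in lung and 3644 (6.54%) lower, at a Benjamini-Hochberg adjusted p of 0.05 or less in limma and a ratio of at least 2-fold. Through RefSeq accessions 27229 probes could be named, and they stood for 20656 genes when each gene was read from its brightest probe. Among those genes 2933 (14.2%) were called higher in lung and 2038 (9.87%) lower. These shares are the background against which the counts of every gene group below are to be read. Without the fold limit 30786 probes (55.3%) had an adjusted p of 0.05 or less, so the fold limit and not the test set the size of the lists.

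High ratios were steeper than low ones. At 16-fold or more, 288 genes were called higher in lung and 29 lower, and the mean log2 ratios ran from -6.38 (Ifi202b, not above background in lung) to 8.56 (Ptprb). Of the 2933 genes called higher, 2925 had a ratio above 0 in all 5 vehicle mice, and 2029 of the 2038 called lower had one below 0. The calls were made from these same mice, so these counts were largely set by the calling. Of the called genes, 397 of those higher in lung were not well above background in the reference channel on any array and 165 of those lower were not well above background in the lung channel, so their folds are only bounds. The division of calls between the directions depended on how arrays were centred. Of the called probes 56.5% were higher after loess, which centres the ratios at each intensity, whereas centring each array on its median gave 3425 probes higher and 6790 lower (33.5% higher). Counts of how many genes were above the reference are therefore relative to that centring, and where it changed the calls of a gene list in a direction by 2 genes or more, the counts are given with that list.

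**Figure D1:**
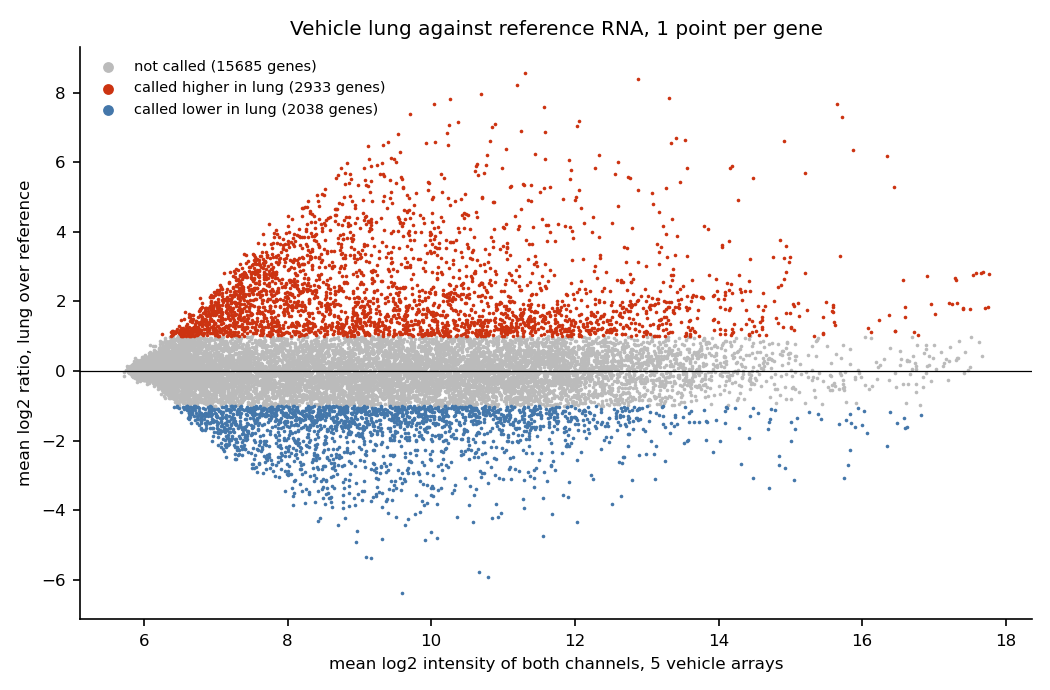
Mean log2 ratio of vehicle lung over reference RNA (vertical axis) against the mean log2 intensity of both channels (horizontal axis), 1 point for each of 20656 genes and the mean of 5 mice at each point. Red points are the 2933 genes called higher and blue points the 2038 called lower; the red cloud reaches 8.56 and the blue cloud -6.38, and the funnel at the left is the range that the background leaves to dim probes.

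The 12 highest ratios among genes measured in both channels belonged to genes of capillaries, alveoli, airways and blood. Ptprb, a receptor tyrosine phosphatase of blood vessel endothelium, had log2 ratios of 8.75, 8.73, 8.43, 8.55 and 8.35 in mice 1 to 5. All 5 lungs thus lay close together, at a mean of 8.56 ± 0.18 (SD, n = 5; limma adjusted p = 1.1e-13), which is 378-fold. Its other probe gave 6.29. Epas1, a hypoxia-inducible transcription factor abundant in endothelium, followed with 8.33, 8.57, 8.05, 8.33 and 8.61, a mean of 8.38 ± 0.23. Its other probes gave 4.91 and 0.87, so the size of its ratio depended on the probe. Limch1, an actomyosin regulator, reached 7.97 ± 0.21, and Sparcl1, a secreted matrix protein, 7.17 ± 0.19.

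Secreted products of the lung epithelium made up much of the rest. Surfactant protein genes Sftpd and Sftpc had mean log2 ratios of 7.83 ± 0.09 and 7.29 ± 0.29, the first with 7.96, 7.89, 7.77, 7.77 and 7.78 in the 5 mice. Scgb1a1, the secretoglobin that defines club cells, gave 8.02, 8.10, 7.20, 7.28 and 7.72, with mice 3 and 4 lowest. Sec14l3, a lipid-binding airway gene, reached 8.21 ± 0.44, and Cyp4b1, a cytochrome P450 of the airways, 7.81 ± 0.14. Hc, which encodes complement component 5, reached 7.14 ± 0.29. Hbb-bs, a beta globin, and S100a9, a calcium-binding protein of neutrophils, gave 7.59 ± 0.41 and 7.10 ± 0.30. Both are genes of blood cells, and where in the tissue such cells lay was not measured. Globin probes cannot be taken as specific for 1 of the near-identical beta globin genes.

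**Figure D2:**
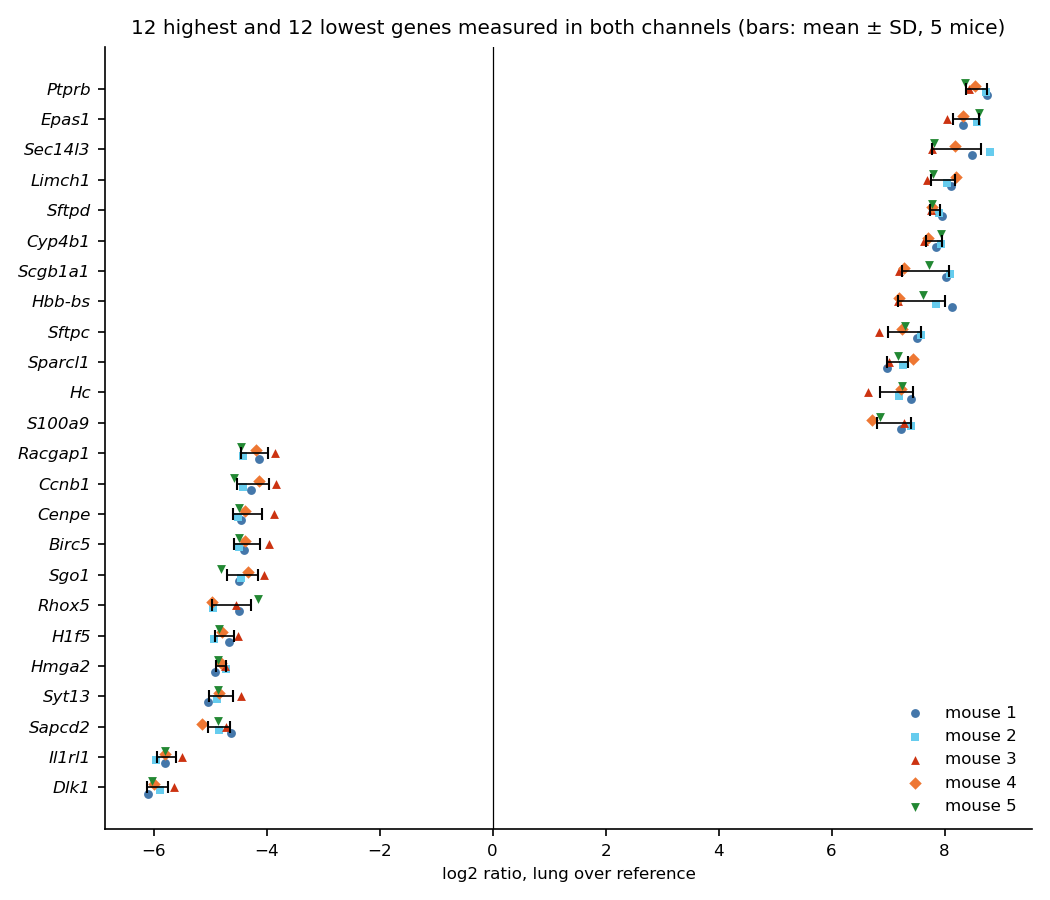
Log2 ratio of lung over reference (horizontal axis) in each of the 5 vehicle mice for the 12 genes with the highest and the 12 with the lowest mean ratio among called genes measured in both channels; points are mice and bars are the mean ± SD. No gene has points on both sides of 0, and mouse 3 is nearest to 0 for 9 of the 12 lowest genes.

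For genes that the reference pool did not show above background, the ratio is a lower bound, set at the dimmest signal that counted as measured or at the dim probe's own signal where that was higher. Hpgd, which degrades prostaglandins, was at least 76.9-fold higher in lung (mean log2 ratio 6.46 ± 0.33; limma adjusted p = 2.2e-12). Lyve1, a hyaluronan receptor of lymphatic endothelium and of some macrophages, was at least 53.5-fold higher, with log2 ratios of 6.01, 6.83, 5.11, 6.24 and 5.68. Pon1, a paraoxonase of club cells, and Kit, the receptor for stem cell factor, were at least 47.8-fold and at least 47.7-fold higher. The other 8 of these 12 genes were, from the largest bound down, Cyyr1 (at least 43.8-fold), Tmprss4, Rnf186, Art4, Fam162b, Dapk1, Pcdh12 and Nek5. Other probes of Art4 and Nek5 gave only 1.79 and 0.25, so those 2 ratios depended on the probe.

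Markers of alveolar, club and ciliated cells were mostly far above the reference, list by list. Of 17 alveolar type 2 markers on the array, 17 were called higher (background 14.2% of genes), with a median log2 ratio of 4.10 and none called lower. Sftpa1 (6.71 ± 0.16) and Sftpb (6.56 ± 0.15) encode surfactant proteins, Slc34a2 (4.77 ± 0.09) a phosphate transporter, and Abca3 (3.43 ± 0.10) the pump that loads surfactant lipid into lamellar bodies. The lowest of the list was Etv5 (1.89 ± 0.17), a transcription factor of these cells. The mean over the list was 4.75, 4.65, 4.62, 4.72 and 4.69 in the 5 mice, so this mean differed little between the pieces of lung (SD 0.052). Single members varied more, with a median SD of 0.163 between mice.

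Of 15 alveolar type 1 markers, 13 were called higher (median 3.65). Clic5, an intracellular chloride channel protein, had a log2 ratio of 6.90 ± 0.22, and Ager, the receptor for advanced glycation end products that coats these cells, had values of 6.00, 5.91, 5.58, 5.61 and 5.75. Aqp5, a water channel, reached 5.20 ± 0.15. The markers not called were Pdpn (0.44 ± 0.24), a mucin-like membrane protein, and Scnn1g, which was not well above background in either channel.

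All 15 club cell markers on the array were called higher (median 4.20), led by Sec14l3, Scgb1a1, Aldh1a1 (6.63 ± 0.55) and Cyp2f2 (6.61 ± 0.33), the last a cytochrome P450 of club cells that activates inhaled toxicants. Here the mice differed more. Their list means were 5.03, 5.10, 4.68, 4.26 and 5.41, with mouse 4 lowest and mouse 5 highest, and the median SD of a member between mice was 0.541, against 0.137 over all genes measured in lung. Scgb3a1, another secretoglobin, had 3.54, 5.11, 3.06, 3.59 and 5.04. Bpifa1, an antimicrobial airway protein, had 3.89, 3.56, 2.84, 2.18 and 5.77, and its reference signal was above background on 1 of the 5 arrays.

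Of 19 ciliated cell markers, 18 were called higher (median 3.79). Ccdc153 (5.70 ± 0.30), Tppp3 (5.36 ± 0.23) and Dynlrb2 (5.28 ± 0.26), a dynein light chain, led the list. Foxj1, the transcription factor that switches on motile cilia genes, had 4.15, 4.14, 3.58, 3.39 and 3.85. Dnah5, an outer arm dynein heavy chain, was not above background in the reference and was at least 13.7-fold higher in lung. Lrriq1 alone was not called (0.80 ± 0.19). Mouse 4 was again lowest, with a list mean of 3.04 against 3.44 to 3.76 in the other 4 mice. In bulk tissue, fewer cells of a type and less RNA in each cell cannot be told apart, here or for any list below.

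Ciliated cell genes are known to carry X-box motifs, sites for RFX factors, near their start. RefSeq promoter windows (GRCm38.p6, 250 bases before to 50 after a start) were available for 16 of the 19 ciliated cell genes. The letters GTTGCCA, on either strand, were present in windows of 6 of the 16 (37.5%) against 5.02% of 27025 genes with a window, a description of these letters only. The promoters of Drc1, a regulator of axonemal dynein (5.33, 5.25, 5.00, 4.52 and 5.00 in the 5 mice), and of Tekt1, a filament protein of cilia (4.76, 4.86, 4.36, 4.25 and 4.81), are shown because both genes were high in every mouse and hold the letters close to the start, in capitals.
Drc1, chr5:30281143-30281442, plus strand: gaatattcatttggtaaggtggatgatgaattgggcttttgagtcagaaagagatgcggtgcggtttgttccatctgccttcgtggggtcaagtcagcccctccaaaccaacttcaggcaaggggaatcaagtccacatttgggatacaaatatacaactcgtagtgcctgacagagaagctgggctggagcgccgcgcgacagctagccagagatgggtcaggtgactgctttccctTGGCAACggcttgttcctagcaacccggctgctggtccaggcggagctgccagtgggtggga
Tekt1, chr11:72361833-72362132, minus strand: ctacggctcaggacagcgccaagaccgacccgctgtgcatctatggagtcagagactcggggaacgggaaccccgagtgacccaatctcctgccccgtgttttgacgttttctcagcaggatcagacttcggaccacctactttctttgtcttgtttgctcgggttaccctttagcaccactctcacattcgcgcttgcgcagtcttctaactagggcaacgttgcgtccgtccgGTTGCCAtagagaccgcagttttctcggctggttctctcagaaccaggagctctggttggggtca
The match began 12 bases before the start in Drc1, on the opposite strand, and 15 bases before it in Tekt1. For the alveolar type 2 list the letters CAAGTG, part of a site for the lung factor Nkx2-1, were present in 2 of 13 genes with a window (15.4%), the same share as over all genes (15.4%), and for the club cell list in 4 of 12 (33.3%).

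Markers of less common epithelial cells stood lower. None of 5 airway basal cell markers was called higher, and Krt14, a keratin, was called lower (-1.06 ± 0.10). Of 8 neuroendocrine markers, 3 were called higher. Calca, which encodes calcitonin gene-related peptide, was at least 4.02-fold higher (1.89, 2.10, 3.01, 1.49 and 1.79, with mouse 3 highest).

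Blood vessel endothelium was high nearly throughout. Of 30 markers, 29 were called higher (median 4.31), and 17 had a log2 ratio of at least 4. Cldn5, the claudin of endothelial tight junctions, reached 7.04 ± 0.26. Gpihbp1, which anchors lipoprotein lipase to capillaries, gave 6.73, 6.85, 6.03, 6.30 and 6.04, and Vwf, von Willebrand factor, gave 5.56, 5.60, 5.35, 5.56 and 5.51. Cdh5, endothelial cadherin, reached 6.50 ± 0.21, with a reference signal above background on 1 array. Kdr, a receptor for VEGF, was the member not called (0.79 ± 0.08), but its other probe gave 6.32, so its probes disagreed by more than any spread between mice. The list means were 4.45, 4.45, 4.14, 4.38 and 4.40, with mouse 3 apart at the low end. Of 5 lymphatic endothelium markers, Lyve1 and Mmrn1 (at least 8.50-fold) were called higher, and Prox1 (0.41 ± 0.18) and Flt4 (0.65 ± 0.14) were not.

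Mesenchymal genes were divided. Of 20 fibroblast markers, 13 were called higher and 2 lower (median 1.56). Mfap4 (5.93 ± 0.17), a microfibril protein, Inmt (5.88 ± 0.22), a methyltransferase, and Mgp (5.84 ± 0.23), an inhibitor of calcification, were the highest, and the lung fibroblast factor Tcf21 reached 3.96 ± 0.22. At the other end Col1a1, the main fibrillar collagen chain, had -2.60, -2.51, -1.73, -2.55 and -2.50, below 0 in every mouse (adjusted p = 6.9e-09). Of 15 smooth muscle and pericyte markers, 9 were called higher, led by Higd1b (5.65 ± 0.26) and Myh11 (3.75 ± 0.38), the smooth muscle myosin. Acta2, smooth muscle actin, stood at -0.11 ± 0.40 and was not called. After median centring 6 of this list were called higher and 1 lower.

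Of 24 collagen and elastic fibre genes, 9 were called higher and 5 lower. The basement membrane chains Col4a4 (3.62 ± 0.17), Col4a2 (1.55 ± 0.21) and Col4a1 (1.27 ± 0.22) and the elastic fibre genes Fbln5 (1.73 ± 0.38) and Ltbp4 (1.84 ± 0.33) were among the first. The fibrillar chains Col5a1 (-2.27 ± 0.25) and Col1a2 (-1.22 ± 0.17) and the cross-linking enzyme Lox (-2.76 ± 0.26) were among the second. This balance moved with the scaling: after median centring 6 were called higher and 9 lower, and the list median went from 0.16 to -0.36. The other probe of Fbln5 gave 0.19.

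Alveolar macrophage genes were above the reference, and the other immune lists were divided between called and not called members. Of 16 alveolar macrophage markers, 15 were called higher (median 3.38), and 12 after median centring. Ear2 (6.61 ± 0.14), an eosinophil-associated ribonuclease whose probe may also read its near copies, and Plet1 (6.13 ± 0.12; its other probe 2.23) were the highest. Chil3, a chitinase-like protein, had 3.72, 2.58, 3.31, 5.11 and 3.93. Siglecf, a sialic acid receptor of these cells, was at least 7.90-fold higher on 1 probe and at 0.62 on the other. Of 13 markers of monocytes and interstitial macrophages, 6 were called higher, among them the complement genes C1qb (2.50 ± 0.12) and C1qc (2.79 ± 0.16), and Nr4a1 was called lower (-1.53 ± 0.70).

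Lymphocyte lists had medians within 1 of the reference. Of 12 B cell markers 6 were called higher, among them Fcmr, a receptor for IgM (3.48 ± 0.45). Of 13 NK cell markers 5 were called higher, led by the granzyme gene Gzma at 5.46, 4.95, 4.63, 3.75 and 5.07. Of 14 T cell markers 3 were called higher and 3 lower. Cd3e, a chain of the T cell receptor complex, lay below the reference in every mouse (-0.78, -0.80, -0.78, -0.74 and -0.61) without reaching 2-fold, and Cd5 was called lower (-1.75 ± 0.29). After median centring 7 of the T cell markers were called lower. In the scanner software's background-subtracted ratio the medians of the B and NK cell lists were 2.18 and 2.48, against 0.86 and 0.84, with 8 and 9 markers called higher, and NK cells had 9 without normalization too. Mouse 4 had the lowest list mean for B cells (1.02 against 1.18 to 1.81) and NK cells (0.56 against 0.81 to 1.46).

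Of 11 neutrophil markers 8 were called higher and Mmp9, a matrix protease, lower (-1.61 ± 0.23). Of 9 dendritic cell markers 4 were called higher, led by Ccr7 (3.01 ± 0.48), a chemokine receptor, and of 6 mast cell and basophil markers 2, the protease genes Tpsb2 (1.85 ± 0.38; its other probe 0.05) and Mcpt4. Of 7 red blood cell genes 6 were called higher (median 5.35), and Hba-a1, alpha globin, gave 6.82, 6.57, 5.82, 6.30 and 6.25. Slc4a1, the anion exchanger of red cells, spread more widely, at 4.34, 2.64, 1.45, 2.63 and 2.02.

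Most genes of antigen presentation and innate defence were called higher. Of 11 MHC class II genes 9 were called higher (median 2.66). H2-Ab1 (4.36 ± 0.19) and Cd74 (3.31 ± 0.17), the invariant chain, were called, whereas Ciita, the transactivator of the class, stood at 0.04 ± 0.10. Of 14 complement and antimicrobial genes 10 were called higher and Slpi, a protease inhibitor, lower (-1.47 ± 0.65). After median centring 8 were called higher and 2 lower, and the median went from 2.11 to 1.28. Lyz1 (6.86 ± 0.18) led them, and its probe cannot be assumed to exclude the closely related Lyz2 (4.09 ± 0.13), itself on the alveolar type 2 list.

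Markers of other tissues were read against the reference too, which does not show whether those tissues were in the samples. None of 10 liver markers was called, and 5 of them were not above background in the lung channel of any array. Of 10 skeletal muscle markers none was called higher and 2 were called lower, while 6 were well above background in lung on all 5 arrays. Of 6 thymus markers Cd1d1 was called higher (1.19 ± 0.16) and Dntt lower (-1.34 ± 0.17), and Rag2 and Ptcra were not above background in either channel. Of 8 fat markers 3 were called higher, with Cfd, adipsin, at 4.93, 4.08, 4.90, 3.38 and 5.99 and Cidea at least 7.64-fold higher, whereas Adipoq, adiponectin, stood at 0.72 ± 0.59. Heart muscle genes are taken up with the spread between mice.

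Transcription factors known for lung development were mostly above the reference. Of 18, 15 were called higher (median 3.06) and none lower, and 13 were called higher after median centring. Foxa2 (5.40, 5.61, 5.35, 5.27 and 5.40), a forkhead factor of endoderm, and Nkx2-1 (4.15, 4.04, 3.66, 3.82 and 3.83), which marks lung epithelium, were high in all 5 mice. The mesenchymal T-box factors Tbx2 (2.98 ± 0.06), Tbx3 (3.32 ± 0.08) and Tbx5 (3.26 ± 0.06) had SDs below 0.1 between mice, and Tbx4 was at least 21.9-fold higher. Gata6 (0.78 ± 0.08), Elf3 (0.49 ± 0.22) and Foxp2 (0.19 ± 0.10) were not called. The other probe of Foxa2 gave 3.71.

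Genes of xenobiotic metabolism, the system that handles the hydrocarbons given to the other mice, were mostly above the reference in unexposed lung. Of 30 genes, 21 were called higher and 2 lower (median 2.25), and 18 higher and 3 lower after median centring. Beside Cyp4b1, the carboxylesterase Ces1d (6.83 ± 0.32), the flavin monooxygenases Fmo1 (5.29 ± 0.24) and Fmo2 (4.90 ± 0.18) and the glutathione transferase Gsta3 (5.20 ± 0.20) were among the highest. Cyp1a1, the hydrocarbon-inducible P450, was not above background in the reference and at least 1.90-fold higher, with log2 ratios of 1.59, 0.82, 0.60, 0.37 and 1.65. Those called lower were Cyp1b1, a related P450 (-1.60, -1.55, -1.45, -2.25 and -1.65), and Nqo1, a quinone reductase (-1.57 ± 0.21). Ahr, the receptor that induces these enzymes, was called higher at 1.55 ± 0.33.

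The lowest ratios included many genes of cell division. Dlk1, an imprinted Notch-like protein of progenitor cells, had log2 ratios of -6.10, -5.88, -5.64, -5.99 and -6.03, a mean of -5.93 ± 0.18 (limma adjusted p = 4.7e-13). Il1rl1, the receptor for interleukin-33, had -5.77 ± 0.17, and its other probes gave -4.31 and -2.18. Hmga2, a chromatin protein of embryonic cells, lay at -4.81 ± 0.08 and the homeobox gene Rhox5 at -4.62 ± 0.34. Others among the lowest 12 act in division, namely Sgo1 (-4.43 ± 0.28), which protects centromere cohesion, the histone gene H1f5 (-4.75 ± 0.17), and Racgap1 (-4.21 ± 0.25), needed for cytokinesis. Sapcd2 (-4.84 ± 0.20; its other probe -0.17) and Syt13 (-4.81 ± 0.21) completed them, together with Birc5, Cenpe and Ccnb1, which belong to the mitosis list.

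Ifi202b, an interferon-inducible DNA-binding protein, was not above background in lung and at least 82.1-fold lower (-6.29, -6.31, -6.05, -6.33 and -6.90; adjusted p = 2.0e-12). It stood apart from the next such genes, whose bounds were 18.2-fold or less, among them Krt20 (at least 13.7-fold lower), a keratin, Hoxc4 (11.3-fold), a homeobox gene, Ereg (10.3-fold), an EGF-like growth factor, and Has2 (7.39-fold), a hyaluronan synthase. Spinkl, Mgarp, 4930550L24Rik, 2810408I11Rik, Fut1, Defb41 and Asb5 filled the remaining places, with bounds from 6.51-fold to 18.2-fold.

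The cell cycle was low as a whole. Of 28 mitosis genes 25 were called lower (background 9.87% of genes) and none higher, with a median log2 ratio of -3.20. All 28 lay below 0 in all 5 mice. Birc5, survivin, had -4.40, -4.49, -3.95, -4.38 and -4.49, and Cenpe, a centromere motor, had -4.45, -4.50, -3.87, -4.38 and -4.49, with mouse 3 nearest to 0 for both. Ccnb1, cyclin B1, reached -4.25 ± 0.28 and Top2a, a topoisomerase, -3.91 ± 0.15. The 3 not called were Aurkb, not above background in either channel, Cenpf (-0.52 ± 0.13) and Hmmr (-0.95 ± 0.16).

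Of 28 DNA replication genes 27 were called lower and none higher (median -2.41), and all 28 lay below 0 in every mouse. Rrm2, a subunit of ribonucleotide reductase, had -4.19, -4.24, -3.53, -4.43 and -4.21, and Cdt1, a licensing factor, -3.83 ± 0.29. The 6 subunits of the Mcm2 to Mcm7 helicase ran from -1.99 (Mcm4 and Mcm5) to -3.11 (Mcm6). Tyms, thymidylate synthase, was the gene not called (-0.78 ± 0.09). List means were -2.48, -2.52, -2.08, -2.59 and -2.54, mouse 3 being apart.

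Promoters of cell cycle genes hold known letter patterns, CHR elements (TTTGAA) with CCAAT boxes for mitosis and E2F-type sites (TTTNNCGC) for DNA replication. Windows were available for 24 genes of each list. TTTGAA was present for 17 of 24 mitosis genes (70.8%, against 20.2% of all genes with a window), CCAAT for 19 (79.2% against 41.1%), and both for 16 (66.7% against 8.97%). CCAAT was not particular to mitosis genes, being present for 15 of 24 DNA replication genes (62.5%) and 9 of 16 ciliated cell genes (56.2%). It was present for 5 of 12 club cell genes (41.7%) and 3 of 13 alveolar type 2 genes (23.1%). TTTNNCGC was present for 12 of 24 DNA replication genes (50% against 5.93%) and for 1 of 24 mitosis genes. Matches were counted on both strands, whether or not they overlapped one another. Windows of Aurka, a spindle kinase (-3.93, -3.91, -3.39, -3.82 and -3.97 in mice 1 to 5), Cdc20, an activator of the anaphase-promoting complex (-3.81, -3.54, -3.47, -3.65 and -3.58), and Mcm6 (-3.16, -2.75, -2.45, -4.17 and -3.01) are shown because these genes were low in every mouse and carry the letters, in capitals as they stand on either strand.
Aurka, chr2:172370521-172370820, minus strand: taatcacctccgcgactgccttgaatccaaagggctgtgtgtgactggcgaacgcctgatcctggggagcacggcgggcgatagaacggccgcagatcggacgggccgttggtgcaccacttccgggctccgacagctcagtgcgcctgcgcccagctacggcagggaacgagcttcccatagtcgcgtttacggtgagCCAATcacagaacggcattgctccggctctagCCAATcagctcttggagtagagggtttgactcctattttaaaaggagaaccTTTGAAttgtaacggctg
Cdc20, chr4:118437294-118437593, minus strand: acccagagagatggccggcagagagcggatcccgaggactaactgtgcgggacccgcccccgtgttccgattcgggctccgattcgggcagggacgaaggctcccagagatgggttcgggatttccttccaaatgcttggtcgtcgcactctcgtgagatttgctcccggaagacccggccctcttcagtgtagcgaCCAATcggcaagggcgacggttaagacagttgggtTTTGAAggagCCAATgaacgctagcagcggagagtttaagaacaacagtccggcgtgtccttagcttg
Mcm6, chr1:128359656-128359955, minus strand: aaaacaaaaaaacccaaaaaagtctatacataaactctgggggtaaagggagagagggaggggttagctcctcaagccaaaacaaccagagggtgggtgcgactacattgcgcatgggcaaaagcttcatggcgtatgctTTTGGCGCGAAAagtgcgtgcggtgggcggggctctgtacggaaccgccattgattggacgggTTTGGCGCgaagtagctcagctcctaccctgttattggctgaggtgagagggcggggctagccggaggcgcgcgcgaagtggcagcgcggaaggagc
In Cdc20 the CCAAT letters began 53 and 8 bases before the start and TTTGAA 18 bases before it. In Aurka CCAAT began 51 and 19 bases before the start and TTTGAA 33 bases after it. The 3 matches in Mcm6 began 110, 106 and 47 bases before the start, the middle one on the opposite strand and overlapping the first.

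Genes of growth metabolism were mostly called lower too. Of 18 ribosome biogenesis genes 16 were called lower (median -1.33), from Ncl, nucleolin (-2.73, -2.72, -2.50, -2.67 and -2.61), to Polr1a (-1.03 ± 0.19) among those called. The other probe of Ncl gave -0.66. Of 18 genes for tRNA synthetases and amino acid supply 14 were called lower (median -1.58). Psat1 (-3.34 ± 0.36) and Shmt2 (-3.00 ± 0.20), both of serine and one-carbon metabolism, were the lowest, and Wars, tryptophanyl-tRNA synthetase, was called higher (1.14 ± 0.11). Of 14 glycolysis genes 13 were called lower (median -1.86). Slc2a1, the glucose transporter GLUT1, had -3.18, -3.08, -3.17, -3.72 and -2.85, and Pgam1, phosphoglycerate mutase, -3.04, -3.09, -3.02, -3.11 and -3.07, while Aldoa stood at -0.29 ± 0.08. Median centring lowered the medians of these 3 lists to -2.19, -2.37 and -2.73 and that of DNA replication to -3.06, with 18 ribosome biogenesis genes called lower.

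Cytosolic ribosomal proteins were the group whose call turned most on the scaling. After loess 1 of 18 was called lower, Rps3 (-1.10 ± 0.25), and the median log2 ratio was -0.21, with Rps2 at 0.42 ± 0.17 (its other probe -1.31) and Rpl5 at -0.87 ± 0.07. After median centring 17 of 18 were called lower, at a median of -1.62, and without any normalization 12 were, at -1.14. No direction is therefore given for them. Cholesterol synthesis genes were mostly not called (3 lower and 1 higher of 16), with Cyp51, a sterol demethylase, lowest (-1.72 ± 0.19). After median centring 9 were called lower and none higher.

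Of 18 embryonic and imprinted growth genes 6 were called lower and none higher. Beside Hmga2 these were Igf2bp1 (-1.71 ± 0.18) and Igf2bp2 (-1.94 ± 0.14), RNA-binding proteins of fetal tissues, Igf2bp3 (at least 5.01-fold lower), Afp, alpha-fetoprotein (-1.18 ± 0.36), and Dnmt3l (-1.18 ± 0.27), a cofactor of DNA methylation. The pluripotency factor Pou5f1 was not above background in either channel, and Nanog stood at 0.62 ± 0.12.

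Genes that respond within minutes to stimulation were mostly below the reference, 10 of them in all 5 mice, while 2 were above it in all 5. Of 13 immediate early genes 7 were called lower and none higher, with Egr1 (-4.05, -3.70, -3.89, -3.98 and -2.69) and Fos (-3.32, -2.78, -3.14, -2.95 and -2.50) nearest to 0 in mouse 5. Jun stood at 1.00 ± 0.19, just short of the fold limit. After median centring 9 were called lower. Circadian clock genes were near the reference, with Cry2 (1.80 ± 0.17) and Tef (1.43 ± 0.24) among those called higher, Nfil3 (-1.16 ± 0.19) called lower, and Arntl, a core activator of the clock, at 0.16 ± 0.33.

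Sex chromosome genes were those of male lung. Xist, the RNA that silences an X chromosome in female cells, was not above background in any lung, and was at least 6.42-fold lower than in the reference pool. The Y-linked genes Eif2s3y (1.69, 1.92, 2.01, 1.26 and 1.01) and Ddx3y (1.21, 1.22, 1.03, 1.18 and 1.46) were called higher, with ratios above 0 in every mouse. The other 2 of the 5 genes, Y-linked Kdm5d and Uty, were not called, though 4 of the 5 genes had ratios above 0 in every mouse.

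**Figure D3:**
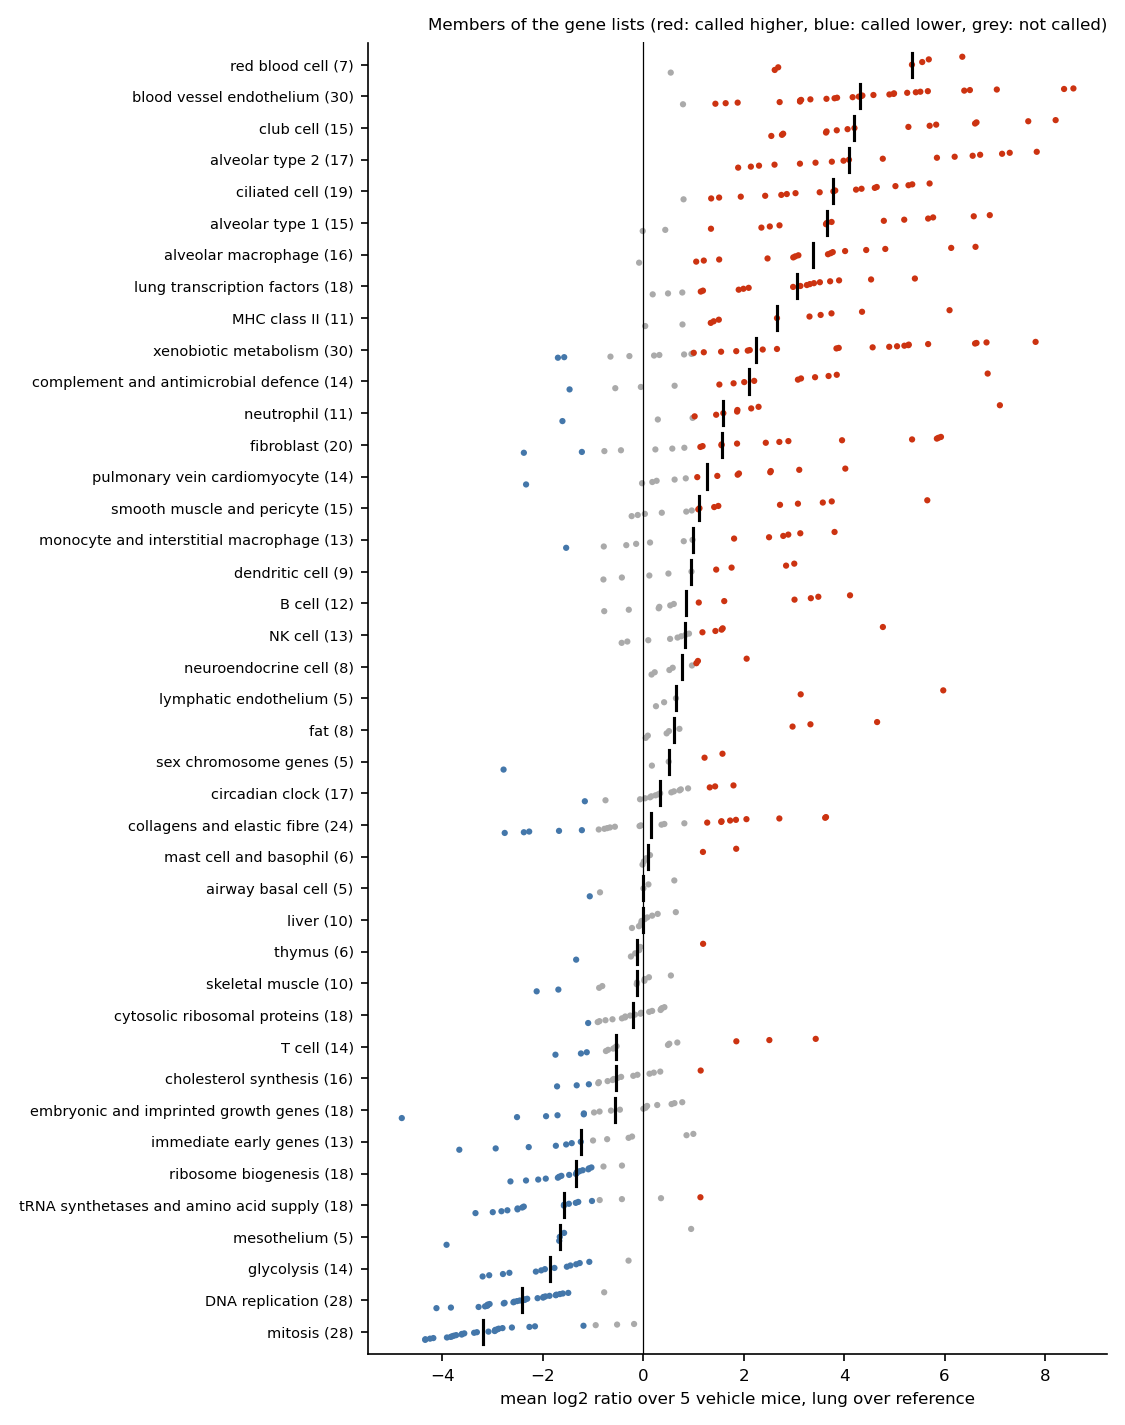
Mean log2 ratio over the 5 vehicle mice (horizontal axis) of every member of 41 gene lists (vertical axis, number of members on the array in brackets), 1 point per gene and a black bar at the median of the list. Red points were called higher, blue points lower and grey points not called; list medians run from 5.35 for red blood cells to -3.20 for mitosis.

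Single lungs agreed closely for most genes. Among 13844 genes well above background in the lung channel on all 5 arrays, the median SD of the log2 ratio between mice was 0.137, against a median pooled SD of 0.154 within the 3 exposed groups. For 399 probes printed 10 times on each array, the SD between spots of an array was 0.109 and the SD between mice of their mean 0.096. The number of genes with a ratio more than 2-fold from the median of the other 4 mice was 26 in mouse 1, 46 in mouse 2, 107 in mouse 3, 94 in mouse 4 and 47 in mouse 5, of 13841 genes with all 5 values. Mouse 3 was more often high (77 of its 107 genes) and mouse 4 more often low (73 of 94). The ratios of mouse 3 were also narrower as a whole. Over 4971 called genes, the slope of its log2 ratios on the mean of the other 4 mice was 0.921, against 0.973 to 1.038 for the other mice taken the same way, and it was nearest to 0 for 9 of the 12 highest and 9 of the 12 lowest genes. Its low endothelium mean and its higher mitosis and DNA replication values were of this direction, and the part of the narrower ratios in them was not tested.

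Heart muscle genes varied most. Myh6, the atrial myosin heavy chain, had log2 ratios of 5.95, 1.67, 5.58, 0.75 and 6.16 in mice 1 to 5, an SD of 2.60, and its reference signal was above background on 4 arrays. Mice 1, 3 and 5 were high and mice 2 and 4 low, with nothing between. Its other, dimmer probe averaged 0.97. Myl7, an atrial myosin light chain, had 3.90, 0.24, 3.81, 0.41 and 4.34, with its reference signal above background on 2 arrays, and Myl4 had 3.02, 0.08, 2.81, -0.37 and 3.99, in the same pattern. Means over the list of 14 cardiomyocyte genes were 2.01, 0.18, 1.87, -0.13 and 2.53. Of these genes 8 were called higher and 1 lower, and 6 higher after median centring. In the mouse such cells line the pulmonary veins within the lung, and atrial tissue adjoins the organ. Whether the pieces of lung differed in these was not tested.

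Not every member followed. Actc1, cardiac actin, was high in all 5 mice (2.65, 2.46, 2.55, 1.94 and 3.04), Mybpc3 was low in all of them (-2.33 ± 0.63), and Nppa, an atrial hormone, stood at 0.18 ± 0.06. Over the 13 exposed mice Myh6 ran from 0.49 to 6.42, with a median of 5.48, so the range was as wide as among vehicle mice. The 3 high mice lay in row 1 of their slides and the 2 low ones in row 2, and the part of the slide row in the difference was not tested. Among exposed mice Myh6 ran from 1.22 to 6.42 on 8 arrays of row 1 and from 0.49 to 5.48 on 5 arrays of row 2.

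Mouse 3 stood apart by inflammatory genes as well, several of which crossed 0 there. Saa3, an acute phase apolipoprotein, had -3.23, -2.76, 1.77, -2.46 and -2.75, and Cxcl10, an interferon-induced chemokine, had -2.48, -2.43, 1.44, -2.09 and -2.63. Mouse 3 was above every exposed mouse for both, since these ran from -4.05 to -1.23 for Saa3 and from -2.77 to -2.02 for Cxcl10. The call of Saa3 as lower than the reference was lost without mouse 1, 2 or 5 and kept without mouse 3, when the mean was -2.80. Other genes of these kinds were then looked up, a choice made after the values were seen. Of 14 interferon-stimulated genes 12 were highest in mouse 3, and over the 14 the value of mouse 3 exceeded the median of the other mice by a median of 1.91. Among them were Isg15 (-0.81, -1.08, 1.67, -1.72 and -0.92) and Ifit1 (-0.45, -0.50, 2.36, -0.48 and -0.61). Of 10 acute phase genes, a list that includes Saa3 itself, 7 were highest there, among them Saa1 (-1.26, -1.15, 1.53, -0.79 and -0.94) and Timp1 (-2.31, -2.76, -0.18, -2.69 and -2.50), but not Hp (5.73, within the range of the others).

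Mouse 4 had the highest mean for markers of the lung surface. Of 5 markers of mesothelium, the outer lining of the lung, 4 were called lower over the 5 mice and none higher. The list mean of mouse 4 was nearest to the reference, at -0.27, against -1.49 to -2.14 in the other mice. This gap was not large enough to be among the outlying values listed further below. Only 2 of the 5 markers were well above background in the lung channel on all 5 arrays. Msln, mesothelin, had -2.28, -3.40, -0.32, -0.11 and -2.25, so that mouse 3 was high for this gene too. Upk3b, a uroplakin of mesothelium, had -2.17, -1.82, -2.20, 0.44 and -2.56, with a lung signal above background in 1 mouse. Wt1, a transcription factor of these cells, had -4.27, -4.17, -4.10, -2.10 and -4.95, with a lung signal above background in 1 mouse. The same mouse was lowest for the club, ciliated, B and NK cell lists. It was also lowest for many others, among them the T cell, neutrophil, smooth muscle, fibroblast, fat, xenobiotic metabolism and DNA replication lists. What these differences had to do with the piece of lung taken was not tested.

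Other variable genes changed in 1 or 2 mice. Wnt7a, a signalling protein, was low in mouse 5 alone (2.65, 1.87, 2.35, 2.41 and -1.61), and all 13 exposed mice were at or above 1.87. Its reference signal was above background on 2 arrays. Its call as higher was lost when any mouse but mouse 5 was left out. Serpina3f, a protease inhibitor, was high in mouse 2 alone (-1.10, 2.77, -1.02, -0.96 and -1.29) and was not called, although without mouse 2 it was called lower at -1.09. Its other probe averaged 1.48. Mnd1, a meiotic recombination gene, had 0.88, -2.83, -2.55, -2.59 and 0.07, and 2 probes of the gene placed mice 1 and 5 above the rest. The call of Mnd1 was lost without mouse 2, 3 or 4, and that of Cxcl10 as lower without mouse 5.

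Marco, a scavenger receptor of alveolar macrophages, had 2.69, 3.65, 6.26, 4.31 and 5.29, while the 13 exposed mice lay between 4.64 and 6.19. Reg3g, an antimicrobial lectin of the airways, had 2.10, 1.98, 4.11, 1.07 and 4.67, with its reference signal above background on 1 array. Cyp26b1, which degrades retinoic acid, had 3.68, 0.47, 2.14, 0.35 and 2.25, with mice 2 and 4 low.

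**Figure D4:**
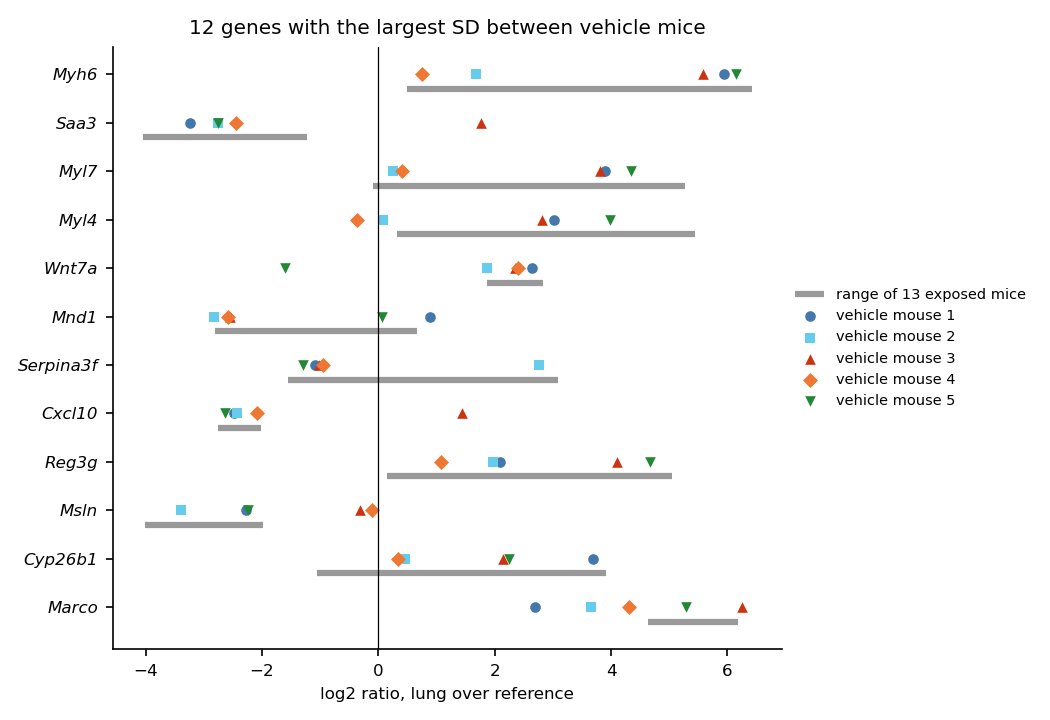
Log2 ratio of lung over reference (horizontal axis) of the 12 genes with the largest SD between vehicle mice, with 1 point for each vehicle mouse and a grey bar for the range of the 13 exposed mice below them. For Myh6, Myl7 and Myl4 mice 1, 3 and 5 lie right of mice 2 and 4; for Saa3 and Cxcl10 mouse 3 lies alone and outside the grey bar, as mouse 5 does for Wnt7a.

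**Figure D5:**
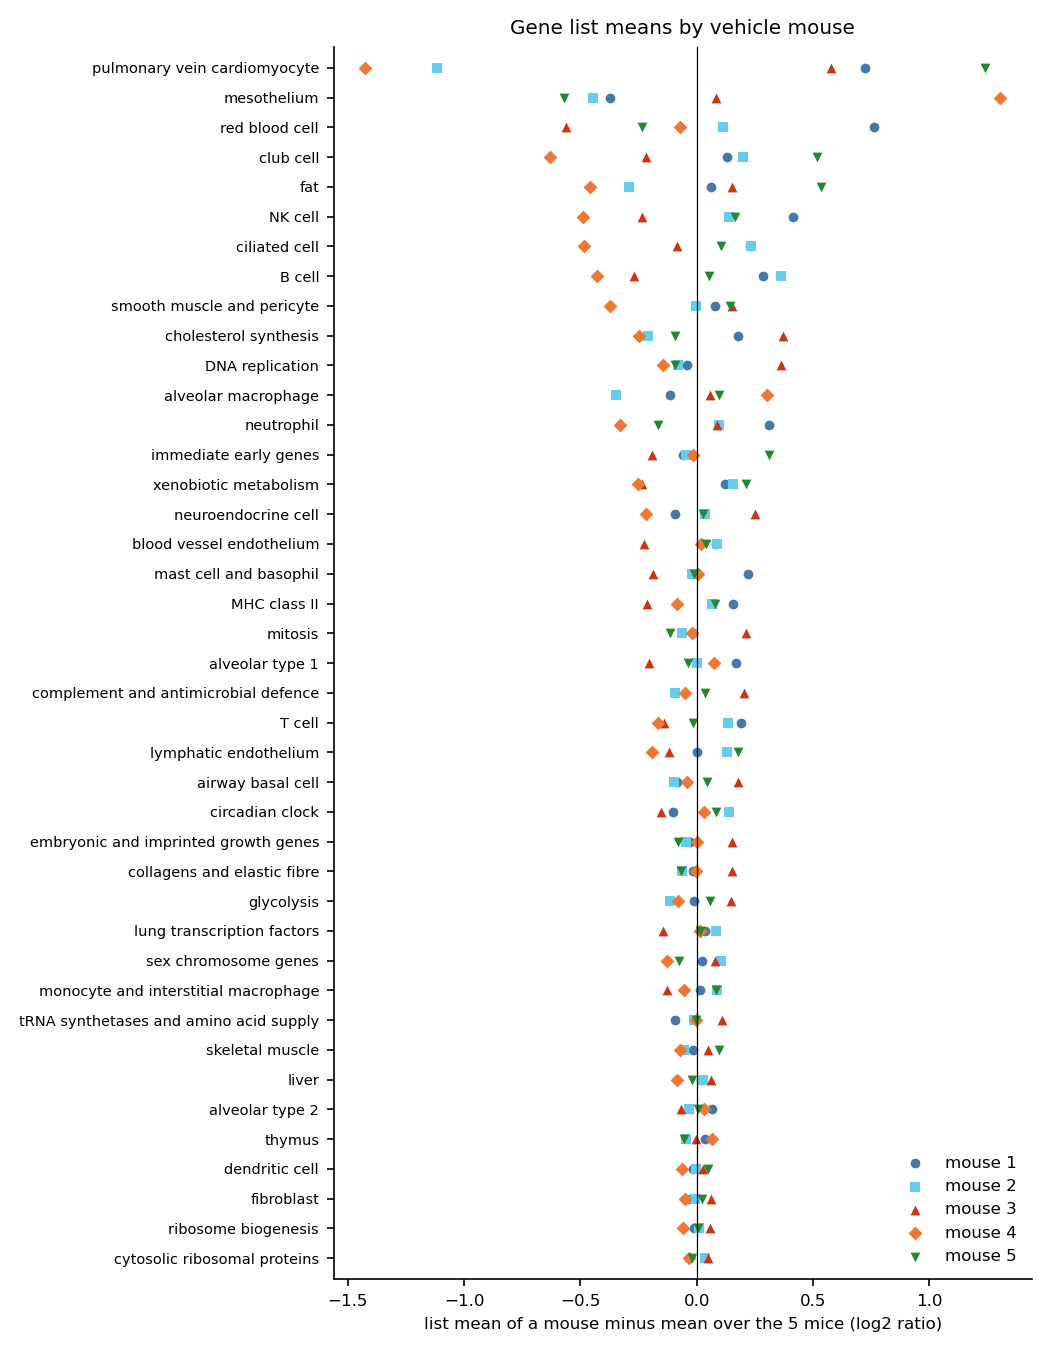
Mean log2 ratio of each gene list in a mouse minus the mean over the 5 vehicle mice (horizontal axis), lists ordered by the largest such difference. The cardiomyocyte list spans -0.13 to 2.53 in its means and mesothelium -2.14 to -0.27, while alveolar type 2, fibroblast and ribosomal protein lists lie close to 0 in all mice.

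Ratios called in vehicle lung mostly had the same direction in the mice that received the mixture, whose arrays did not enter these calls. Of the 2933 genes called higher in vehicle lung, 2897 had a ratio above 0 on all 13 exposed arrays and 2121 were at least 2-fold higher on all of them. Of the 2038 called lower, 2017 had a ratio below 0 on all 13, and 1296 were at least 2-fold lower. Those arrays share the reference RNA, its dye and the probes with the vehicle arrays. The means of the alveolar type 2 list ran from 4.37 to 4.74 over the exposed mice, those of the endothelium list from 4.13 to 4.54 and those of the mitosis list from -3.06 to -2.50.

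Probes without a gene name held part of the difference. Of 16194 probes that the array names only by genome position between genes, 3.19% were called higher and 2.22% lower, against 13.19% and 9.44% of 26536 RefSeq mRNA probes, and 45.5% of the former against 19.54% of the latter were not above background in either channel. Where several probes read 1 gene they mostly pointed the same way. Of 1532 called genes with more than 1 probe, 197 had a probe with a ratio of the opposite sign, and 9 genes had probes called in both directions.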

How the data were processed

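The deposited scanner files hold median intensities of both channels for each spot (Agilent SurePrint G3 Mouse 8x60K; lung Cy5, reference Cy3), and the authors' table holds log2 ratios after LOWESS without background subtraction. Intensities were read per the file headers, and log2 of Cy5 over Cy3 was loess-normalized within arrays, without background subtraction as in the study's methods, with weight 0 for control and outlier spots. The authors' log2 table correlated with these ratios at r = 0.996 to 0.998 and had medians from -0.0191 to -0.0316 on vehicle arrays, so its direction is Cy5 over Cy3. Spots of a probe were averaged, and limma 3.58.1 in R 4.3.3 tested the mean of 5 vehicle arrays against 0, with Benjamini-Hochberg adjustment over 55681 probes. This test leaves out the spread of the reference pool. The median intensity per array was 110 to 131.5 for Cy5 and 75 to 83 for Cy3; the number of arrays limits the precision, and a two-sided sign-flip test over 5 arrays cannot go below 0.0625. Background left in the intensities compresses the ratios of dim probes. The deposited scanner files also hold a log10 ratio, background-subtracted and dye-normalized by the scanner software, used as an alternative. Ratios were also simulated as independent normal values with each probe's SD between vehicle mice. There 99.5% of 200 probes changed by 2 on the log2 scale were recovered, with 0 false calls. The simulation held no dye effect, centring error or background, so it checks the calling step and gives no error rate for the real calls.

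Bounds for probes dim in a channel use per-channel means after loess and Aquantile normalization, and are open to dye bias. Groups follow the sample titles. Genes were named through RefSeq (GRCm38.p6). Genes named are the 12 highest, 12 lowest, 12 with the largest bound in each direction, 12 with the largest SD between mice among genes measured in lung, and members of 41 lists (579 genes). The arrays and lists were chosen with earlier results of these data known. The alternatives were other centring, sources of the ratio, background correction, scaling, a slide block, filters, limits and leaving out each mouse. A few list members are counted but not reported here by name.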

Additional observations from a re-analysis of the deposited data

Results flagged for a closer look

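Values of 1 mouse lay far from those of the other 4 (a gap to the nearest of them above 0.71 of the whole range) for 9 of 101 genes and list means examined; chance gives such a gap in about 1 of 20 groups, a rate that does not hold for the 12 genes chosen for their spread, which gave 4 of the 9 (Saa3, Wnt7a, Serpina3f and Cxcl10). Among the items not chosen for their spread, the share was close to that chance rate. Mouse 3 gave most of the 9. It was the lowest for Hc (6.65, others 7.20 to 7.40) and for the mean of the blood vessel endothelium list (4.14, others 4.38 to 4.45). It was the highest for Birc5 (-3.95, others -4.49 to -4.38), Cenpe (-3.87, others -4.50 to -4.38), the mean of the DNA replication list (-2.08, others -2.59 to -2.48), Saa3 (1.77, others -3.23 to -2.46) and Cxcl10 (1.44, others -2.63 to -2.09). The ratios of mouse 3 were narrower than those of the others as a whole (slope 0.921 over called genes), which goes the same way as its values for Hc, endothelium, Birc5, Cenpe and DNA replication; its part in them was not tested. Mouse 5 was the lowest for Wnt7a (-1.61, others 1.87 to 2.65), and mouse 2 the highest for Serpina3f (2.77, others -1.29 to -0.96).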

How the results depend on the processing

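The counts of 4739 probes higher and 3644 lower in lung stayed within 1.5 times with any mouse left out (4660 to 4836 higher, 3554 to 3778 lower). They also did so under normexp, scaling between arrays, the slide block and the filter on dim probes. The same held for the authors' table (4226 higher, 4370 lower), no normalization (6366 and 3743) and treat (3700 and 2633). The counts moved with the scanner software's ratio (8002 higher, 8681 lower), with a 4-fold limit (1790 and 890) and without a fold limit (15894 and 14892). The count of probes lower also moved with median centring (6790). The split was 49.2% higher in the authors' table and 48.0% in the scanner software's ratio, against 56.5%. Of 579 list genes 383 were called, and 381 to 429 under the alternatives; 353 were called in the same direction after median centring. Of the medians of 41 lists recomputed under 10 alternatives (median centring, the authors' table, the scanner software's ratio, normexp, the mean of all probes and each mouse left out), 316 stayed within the spread between mice and 94 moved by more. Medians that changed sign were those of the airway basal cell and liver lists, both near 0, and of collagens after median centring (0.16 to -0.36). Without normalization skeletal muscle (-0.13 to 0.33) and thymus (-0.12 to 0.45) changed sign too. Of the ratios of the named genes recomputed under 13 alternatives, 760 kept their direction and side of the threshold. A further 18 lost their call, all of Saa3, Myl4, Wnt7a, Mnd1, Cxcl10 and Cyp26b1, chosen for their spread, with Wnt7a lost without any mouse but mouse 5 and by the scanner software's ratio. Serpina3f, not called, gained a call without mouse 2 and turned from -0.32 to 0.039 without normalization. The causes were not tested. The spread between mice (0.137) was 0.321 after median centring and 0.123 to 0.139 with a mouse left out. No paired analysis was possible because no mouse number occurs in more than 1 group; lung and reference share each array, and the test is of that ratio.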
